A study of Mus musculus with 4 samples.

Results

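Expression of 36 genes of glucose and glycogen metabolism was compared in sympathetic ganglia (SG) of mice with more or less signalling by neurotrophic factor 3 (NT-3). The genes were given as a list of mouse symbols and matched through RefSeq to the Entrez identifiers of the expression tables. The matching used no measured value, but the list itself was drawn up with earlier results of these data known. All 36 were listed in all 4 libraries, among 17667 genes listed in at least 1 library and 15275 listed in all 4. All 36 also had a mean of at least 1 FPKM over the 4 libraries, the minimum for the comparisons, which 12752 genes passed.

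RNA-seq was done on SG of thoracic levels T1–T4, which send sympathetic nerves to interscapular brown fat, from C57BL/6 mice 12 weeks old that had spent 1 day at 5 °C. Each of the 4 libraries was a pool of ganglia from 6 mice. AdNTF3-Tg mice carry an NT-3 transgene under a fragment of the adiponectin promoter, so that the transgene is directed to adipocytes. TRKC+/- mice have 1 functional copy of *Ntrk3*, the gene of the NT-3 receptor TRKC, in every cell of the body. WT_1 and WT_2 were pools of WT mice, and the labels do not say which of them served as control of which mutant, so each mutant library was compared with the mean of both and with each alone. The names given to the tables place WT_1 with TRKC+/- and WT_2 with AdNTF3-Tg, which is a hint that the labels do not state, and it was not used to choose a control. With 1 library per mutant there was no replicate check and no p-value, and the distance between WT_1 and WT_2 was the only measure of spread between pools.

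Neurons take up glucose through facilitative transporters, mainly GLUT3, and break it down by glycolysis to pyruvate, which is exchanged with lactate or is imported by mitochondria and oxidized there by the pyruvate dehydrogenase complex. Phosphoglucomutase joins this route to glycogen by moving the phosphate of glucose between positions, and glycogen synthase, branching enzyme and phosphorylase build and degrade the store. Many steps are served by several isoenzymes, some typical of neurons and others of muscle, liver or fat.

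The libraries held between 8665955 and 8894985 reads on genes. All 17 markers of sympathetic neurons were listed in every library, with 2576 to 2753 FPKM of *Th* and 2100 to 2170 FPKM of *Dbh*, both enzymes of norepinephrine synthesis. *Ntrk3* was not lower in the library labelled TRKC+/-, with 2.72 FPKM against 2.45 in WT_1, 2.52 in WT_2 and 2.32 in AdNTF3-Tg. Skeletal muscle markers differed between the WT libraries, with a summed level of 132 FPKM in WT_1 and 19.3 FPKM in WT_2, against 63.6 FPKM in TRKC+/- and 53.3 FPKM in AdNTF3-Tg. Adipocyte markers summed to 532 and 448 FPKM in WT_1 and WT_2, 330 FPKM in TRKC+/- and 378 FPKM in AdNTF3-Tg. The summed markers ranged from 1030 to 1207 FPKM for glia, 73.1 to 79.6 FPKM for endothelium, 136 to 187 FPKM for macrophages and 65.2 to 172 FPKM for red blood cells. In pooled tissue, fewer cells of a type and less RNA per cell cannot be told apart.

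Glycolytic genes were among the most abundant of the ganglion, and the 36 genes together took 1.92% and 1.86% of the reads in WT_1 and WT_2, 1.88% in TRKC+/- and 1.80% in AdNTF3-Tg. *Gapdh* was the 4th or 5th most abundant gene by FPKM in every library, *Aldoa* the 12th or 13th and *Pkm* between the 23rd and the 26th. Of the genes, 17 of 36 had a mean of at least 100 FPKM, 13 had 10 to 100 FPKM, and 6 had less than 10 FPKM. Those 6 were *Hk2*, *Pgm2*, *Pgm3*, *Gbe1*, *Slc2a4* and *Pdk1*, with 53 to 208 reads per library, so that counting error alone was wide for them.

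**Figure D1:**
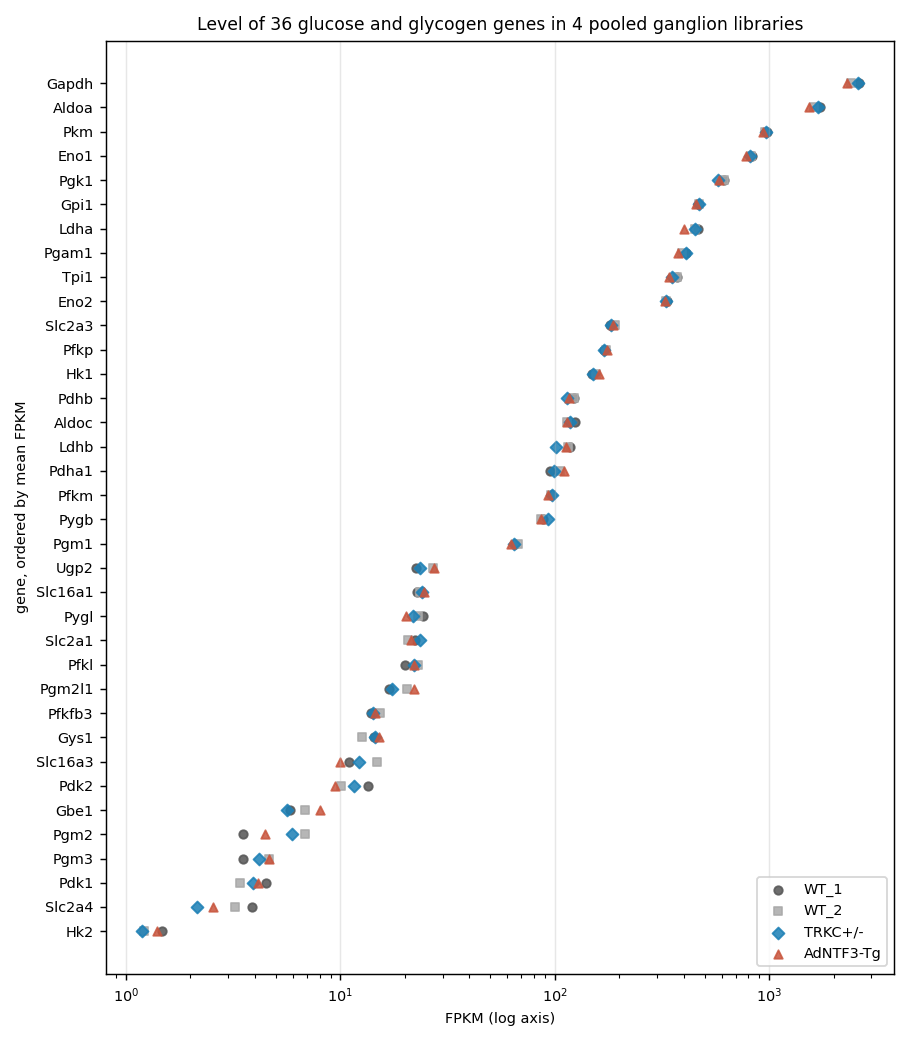
FPKM (log axis) of the 36 genes, ordered by their mean, in WT_1, WT_2, TRKC+/- and AdNTF3-Tg, 1 point per library. The points of most genes lie on top of each other from *Hk2*, at about 1.32 FPKM on average, to *Gapdh*, at 2484 FPKM, and they part visibly only for a few low genes such as *Pgm2* and *Slc2a4*.

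The level of the pathway differed little between the 4 pools. The log2 ratio of the highest to the lowest library had a median of 0.17 over the 36 genes, against 0.27 over all genes tested, and it was below 0.2 for 20 of the 36 (33.2% of all genes tested). The genes of at least 100 FPKM had a median of 0.11, against 0.16 for all genes of that level, while the 6 genes under 10 FPKM had a median of 0.45, against 0.39 for all genes of 1 to 10 FPKM. The median log2 fold change against the mean of WT, computed here as log2 of the ratio of FPKM + 0.1, was -0.04 in AdNTF3-Tg and -0.02 in TRKC+/-, and it was 0.00 in both for all genes tested.

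With a cutoff of 0.5 on the log2 scale, the size of change that the study used, 0 of the 36 genes passed in AdNTF3-Tg against the mean of WT, where 5.42% of all genes tested did. In TRKC+/- 1 of the 36 passed, *Slc2a4*, where 3.35% of all genes did. Between WT_1 and WT_2 1 of the 36 passed, *Pgm2*, where 7.26% of all genes did. The stricter rule of at least 0.5 away from WT_1 and from WT_2 on the same side left *Slc2a4*, below both in TRKC+/- (1.10% of all genes), with 0 genes above both in TRKC+/- (0.541% of all genes) and 0 genes above (0.706%) or below both (1.90%) in AdNTF3-Tg. A single gene makes up 2.78% of the list, and counts of 0 or 1 cannot be read more finely than that.

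The study looked for genes changed in opposite directions by the transgene and by the loss of 1 receptor copy, each against its own control. With WT_1 as control of TRKC+/- and WT_2 as control of AdNTF3-Tg, the pairing that the table names hint at, 1 of the 36 genes, *Pgm2*, passed 0.5 in opposite directions, where 0.863% of all genes did. With the WT libraries exchanged, 0 of the 36 did, where 1.37% of all genes did. Both comparisons depend on 1 library per group, and each pairing moves with the distance between the WT libraries.

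**Figure D2:**
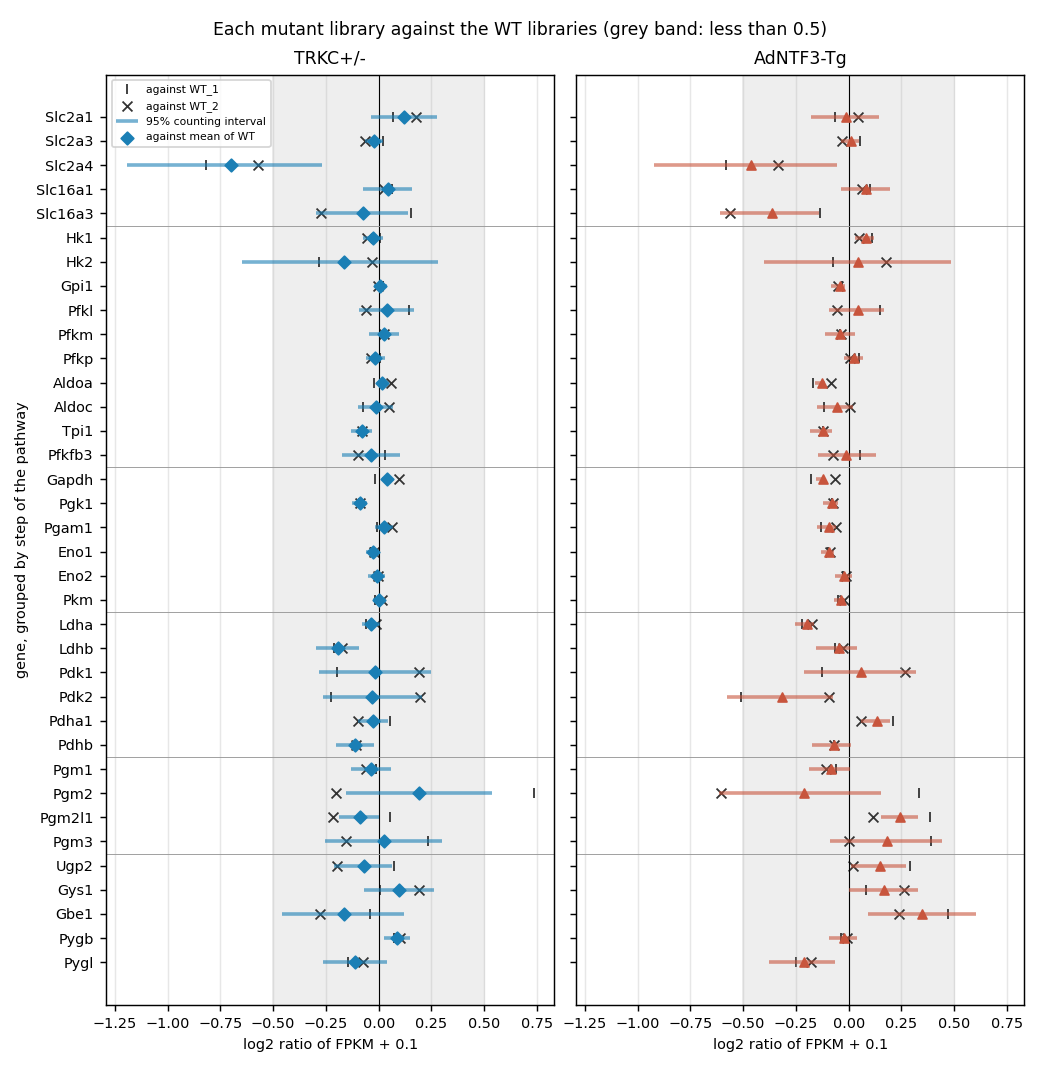
Log2 ratio of FPKM + 0.1 in TRKC+/- (left) and AdNTF3-Tg (right) for the 36 genes, grouped by step of the pathway. Coloured points give the ratio to the mean of WT with the 95% counting interval of the reads, ticks and crosses give the ratios to WT_1 and WT_2, and the grey band spans less than 0.5. *Slc2a4* is the only coloured point outside the band (-0.70, left), and *Pgm2* shows the widest gap between its ticks and crosses.

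Among the transporters, *Slc2a3* encodes GLUT3, the main neuronal glucose transporter. It had 181 FPKM in WT_1, 192 FPKM in WT_2, 184 FPKM in TRKC+/- and 188 FPKM in AdNTF3-Tg, so both mutants lay between the WT libraries. It made up 87.3% to 88.9% of the summed FPKM of the 3 glucose transporters of the list, and *Slc2a1* (GLUT1, found on endothelium and glia) 9.62% to 11.2%. This sum leaves out other members of the transporter family, such as *Slc2a6*, which had 38.4 to 41.8 FPKM, more than *Slc2a1*. *Slc2a1* had 22.4 and 20.8 FPKM in WT_1 and WT_2, 23.5 FPKM in TRKC+/- and 21.4 FPKM in AdNTF3-Tg, a range of 0.18 on the log2 scale.

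*Slc2a4*, which encodes the insulin-responsive transporter GLUT4 of fat and muscle, was lower in TRKC+/-. It had 3.86 FPKM (93 reads) in WT_1, 3.24 FPKM (79 reads) in WT_2, 2.15 FPKM (53 reads) in TRKC+/- and 2.55 FPKM (62 reads) in AdNTF3-Tg. Both mutant libraries were below both WT libraries. The log2 fold change in TRKC+/- was -0.70 against the mean of WT (counting interval -1.19 to -0.27), -0.82 against WT_1 and -0.57 against WT_2. In AdNTF3-Tg it was -0.46 against the mean of WT (counting interval -0.92 to -0.05), -0.58 against WT_1 and -0.33 against WT_2. The intervals are exact 95% Clopper-Pearson intervals of the ratio of reads and cover counting error only. The gene lies on the minus strand at chr11:69756045-69761690 of NCBIM37.

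Part of the adipocyte markers were lower in TRKC+/- as well. Their summed level, to which *Fabp4* contributed most, had the same order over the libraries as *Slc2a4*, highest in WT_1, then WT_2, AdNTF3-Tg and TRKC+/-. Of 11 adipocyte markers tested, 5 were at least 0.5 below both WT libraries in TRKC+/- and 0 above, and in AdNTF3-Tg 1 was below and 0 above. *Fabp4*, a fatty acid carrier, had 244, 225, 134 and 173 FPKM in WT_1, WT_2, TRKC+/- and AdNTF3-Tg, and *Cidea*, of the lipid droplet, had 54.3, 46.1, 43.0 and 45.3 FPKM. *Cfd* (adipsin), secreted by fat, had 104, 64.8, 90.2 and 62.0 FPKM, so TRKC+/- lay between the WT libraries, as it did for *Retn*, *Adipoq* and *Lipe*. *Ucp1*, the uncoupling protein of brown fat, was picked here after its values were seen, with 47.3, 48.1, 7.80 and 37.8 FPKM in the same order. All 12 adipocyte markers were listed in every library, so none was at 0. The part of adipocyte RNA in the level of *Slc2a4* was not tested.

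The lactate carriers showed no common difference. *Slc16a1* (MCT1) had 22.9, 23.5, 23.9 and 24.6 FPKM in WT_1, WT_2, TRKC+/- and AdNTF3-Tg, a spread of 0.10 on the log2 scale. *Slc16a3* (MCT4), typical of glycolytic cells, had 11.0 FPKM in WT_1, 14.8 FPKM in WT_2, 12.2 FPKM in TRKC+/- and 9.97 FPKM in AdNTF3-Tg. AdNTF3-Tg was thus lowest, by -0.56 against WT_2 but by -0.14 against WT_1, less than the -0.43 between WT_1 and WT_2.

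Upper glycolysis, from hexokinase to triose phosphate isomerase, varied least after lower glycolysis, and the fold changes of its 10 genes against the mean of WT lay between -0.16 and 0.08. *Hk1*, the hexokinase of neurons, had 150 and 156 FPKM in WT_1 and WT_2, 150 FPKM in TRKC+/- and 162 FPKM in AdNTF3-Tg, and *Hk2*, the insulin-regulated form of muscle and fat, had 1.47, 1.22, 1.19 and 1.39 FPKM. *Hk1* made up 99.0% to 99.2% of their sum in every library. Among the subunits of phosphofructokinase, the first committed step, *Pfkp* made up 58.6% to 60.2%, *Pfkm* 32.2% to 33.7% and *Pfkl* 7.02% to 7.87%. *Pfkm*, the form that muscle uses, had 96.0 and 95.8 FPKM in WT_1 and WT_2, while the muscle markers differed between these libraries. At this level a difference of a few FPKM would hardly show.

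The other genes of the step were as even. The log2 fold changes of *Pfkp*, *Pfkl*, *Pfkfb3*, which sets the level of the activator of phosphofructokinase, *Gpi1* and *Aldoc* lay between -0.06 and 0.04 in both mutants against the mean of WT. *Aldoa* encodes the main aldolase here, 93.0% to 93.5% of the sum with *Aldoc*, and had 1723 FPKM in WT_1, 1626 FPKM in WT_2, 1695 FPKM in TRKC+/- and 1535 FPKM in AdNTF3-Tg. *Tpi1*, which interconverts the triose phosphates, had 372 and 373 FPKM in WT_1 and WT_2, 353 FPKM in TRKC+/- and 342 FPKM in AdNTF3-Tg. In AdNTF3-Tg both genes were below both WT libraries, by -0.13 and -0.12 against the mean.

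All 6 genes of lower glycolysis were below both WT libraries in AdNTF3-Tg, by small amounts, -0.12 to -0.02 on the log2 scale against the mean of WT. All 6 had at least 100 FPKM, and 60.5% of all genes of that level were below both as well. For *Eno2* and *Pkm* the counting interval against at least 1 WT library held 0. *Gapdh*, which reduces NAD, had 2615 FPKM in WT_1, 2418 FPKM in WT_2, 2588 FPKM in TRKC+/- and 2314 FPKM in AdNTF3-Tg. *Pgk1*, the first step that yields ATP, had 618, 616, 579 and 584 FPKM in WT_1, WT_2, TRKC+/- and AdNTF3-Tg, and so was lower in both mutants. *Pgam1* had 411, 391, 409 and 376 FPKM in those libraries. *Eno1* had 834, 827, 814 and 779 FPKM, and *Eno2*, the neuronal enolase, had 332, 329, 329 and 326 FPKM, the smallest range of the 36 genes (0.03). *Pkm*, which makes pyruvate, had 973, 954, 963 and 939 FPKM. Expected counts of *Gapdh*, *Gpi1* and *Eno1* were not whole in at least 2 libraries, as happens when reads are divided between related sequences, so their levels depend on that division.

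*Ldha*, which reduces pyruvate to lactate, had 468 FPKM in WT_1, 452 FPKM in WT_2, 449 FPKM in TRKC+/- and 401 FPKM in AdNTF3-Tg. Its log2 fold change in AdNTF3-Tg, -0.20 (counting interval -0.25 to -0.16), was the most negative among the genes of at least 100 FPKM. *Ldhb*, the form that favours lactate use, had 118 and 115 FPKM in WT_1 and WT_2, 102 FPKM in TRKC+/- and 113 FPKM in AdNTF3-Tg, and its log2 fold change in TRKC+/- was -0.19 (counting interval -0.30 to -0.09). The share of *Ldha* in the sum of both was 79.9% and 79.7% in WT_1 and WT_2, 81.5% in TRKC+/- and 78.0% in AdNTF3-Tg, so the mutant libraries lay on opposite sides of the WT pair, with 1 library each.

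The genes of pyruvate oxidation differed from the mean of WT by less than the cutoff. *Pdha1*, the catalytic subunit of pyruvate dehydrogenase, had 95.3, 106, 98.7 and 110 FPKM in WT_1, WT_2, TRKC+/- and AdNTF3-Tg, and *Pdhb*, its partner, 123, 123, 114 and 117 FPKM. Of the kinases that switch the enzyme off, *Pdk2* had 13.5 FPKM in WT_1, 10.1 FPKM in WT_2, 11.5 FPKM in TRKC+/- and 9.44 FPKM in AdNTF3-Tg, and *Pdk1* had 4.50, 3.41, 3.91 and 4.12 FPKM. *Pdk2* was the lowest in AdNTF3-Tg, by -0.32 against the mean of WT and -0.51 against WT_1, but its WT libraries differed by 0.42, and those of *Pdk1* by 0.39.

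Among the 36 genes, a phosphoglucomutase, *Pgm2*, had the largest difference between the WT pools. The symbols of 2 of them have been exchanged between genome releases. The gene now called *Pgm1* (Entrez 72157), the major enzyme of the interconversion of glucose 1-phosphate and glucose 6-phosphate, is named *Pgm2* in the annotation of NCBIM37, where it lies on the plus strand at chr4:99602019-99659899. The gene now called *Pgm2* (Entrez 66681), which acts mainly on pentose phosphates, is named *Pgm1* there and lies on the plus strand at chr5:64484175-64519594. The current symbols are used throughout. The RefSeq promoters of both (GRCm38.p6, plus strand, 250 bases before to 50 bases after the start) are shown because they identify the loci whatever the symbol, with capitals marking ACGTG on either strand, the core of the sites of hypoxia-inducible factors. The windows are chr4:99929201-99929500 for *Pgm1* and chr5:64092689-64092988 for *Pgm2*.
Pgm1: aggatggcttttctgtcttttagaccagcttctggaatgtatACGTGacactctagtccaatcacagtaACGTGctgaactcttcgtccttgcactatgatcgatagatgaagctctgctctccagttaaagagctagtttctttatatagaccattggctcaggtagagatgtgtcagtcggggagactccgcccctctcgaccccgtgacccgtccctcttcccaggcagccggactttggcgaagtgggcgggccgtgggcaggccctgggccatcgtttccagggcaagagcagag
Pgm2: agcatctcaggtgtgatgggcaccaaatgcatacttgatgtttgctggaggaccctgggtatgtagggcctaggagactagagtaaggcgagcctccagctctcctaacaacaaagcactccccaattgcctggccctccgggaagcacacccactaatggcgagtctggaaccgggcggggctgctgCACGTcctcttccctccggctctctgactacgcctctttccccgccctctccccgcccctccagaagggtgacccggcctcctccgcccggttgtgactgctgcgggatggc

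*Pgm1* was even, with 65.5 FPKM in WT_1, 67.6 FPKM in WT_2, 64.9 FPKM in TRKC+/- and 62.8 FPKM in AdNTF3-Tg, from 1255 to 1357 reads. Its log2 fold change was -0.04 in TRKC+/- and -0.08 in AdNTF3-Tg against the mean of WT. *Pgm2* had 3.52 FPKM (65 reads) in WT_1, 6.84 FPKM (128 reads) in WT_2, 5.93 FPKM (112 reads) in TRKC+/- and 4.46 FPKM (83 reads) in AdNTF3-Tg. The lowest and the highest of these were the WT libraries, and both mutants lay between them.

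For *Pgm2* the log2 ratio of WT_1 to WT_2 was -0.94 (counting interval -1.40 to -0.51). The value of TRKC+/- was 0.74 against WT_1 (counting interval 0.29 to 1.21) and -0.20 against WT_2 (-0.58 to 0.18). That of AdNTF3-Tg was -0.61 against WT_2 (counting interval -1.03 to -0.21) and 0.33 against WT_1 (-0.16 to 0.82). Against the mean of WT the values were 0.19 in TRKC+/- and -0.21 in AdNTF3-Tg, with counting intervals of -0.16 to 0.54 and -0.61 to 0.15 that hold 0. In these 4 libraries the sign of *Pgm2* in each mutant thus differed with the WT library taken as control, and these values alone do not settle its direction in either genotype. Muscle markers ran the other way between the WT libraries, with the highest summed level in WT_1, where *Pgm2* was lowest, and the lowest in WT_2, where *Pgm2* was highest.

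*Pgm2l1*, which makes glucose 1,6-bisphosphate, the cofactor of these enzymes, and is rich in the nervous system, had 16.9 FPKM in WT_1, 20.4 FPKM in WT_2, 17.5 FPKM in TRKC+/- and 22.1 FPKM in AdNTF3-Tg. AdNTF3-Tg was above both WT libraries, by 0.39 and 0.12, and the log2 ratio of WT_1 to WT_2 was -0.27. *Pgm3*, of the synthesis of UDP-N-acetylglucosamine, had 3.53, 4.65, 4.17 and 4.65 FPKM in WT_1, WT_2, TRKC+/- and AdNTF3-Tg. All 4 genes of the family were lower in WT_1 than in WT_2, by -0.05 to -0.94. By FPKM *Pgm1* made up 70.3% to 76.3% of the sum of *Pgm1*, *Pgm2* and *Pgm2l1*, and *Pgm2* 4.10% to 7.22%.

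**Figure D3:**
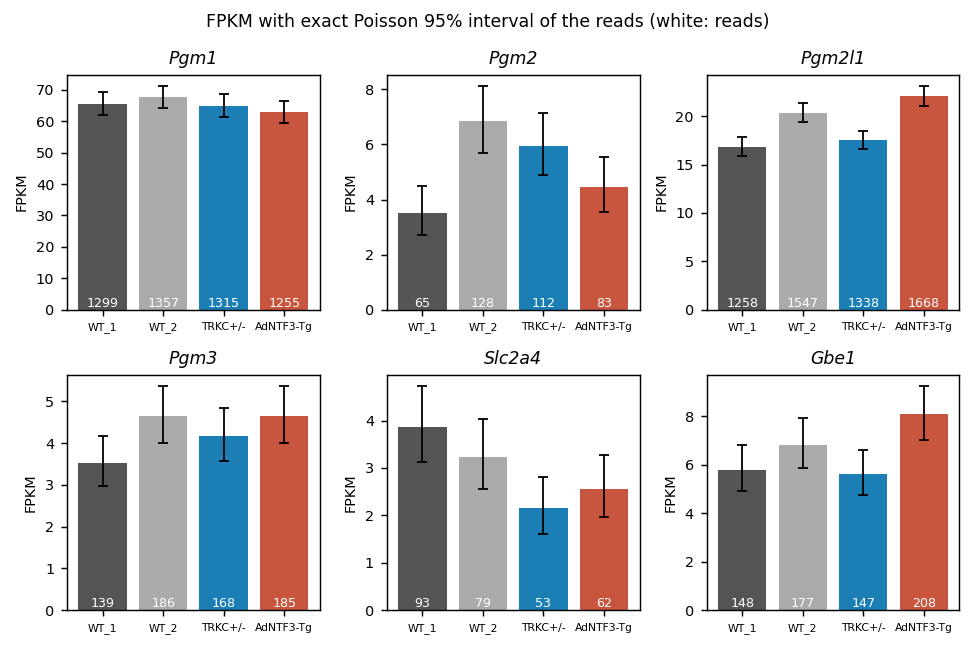
FPKM of the 4 phosphoglucomutases, *Slc2a4* and *Gbe1* in WT_1, WT_2, TRKC+/- and AdNTF3-Tg, 1 bar per library, with exact Poisson 95% intervals of the reads and the read number in white. *Pgm1* is level at 62.8 to 67.6 FPKM, the bars of *Pgm2* for both mutants stand between 3.52 FPKM of WT_1 and 6.84 FPKM of WT_2, and *Slc2a4* is lowest in TRKC+/-.

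Of the 5 glycogen genes, *Ugp2*, *Gys1* and *Gbe1* of synthesis were above both WT libraries in AdNTF3-Tg and the phosphorylases *Pygb* and *Pygl* below both, all by less than the cutoff, and 34.5% and 34.7% of all genes tested were above and below both. None of the 5 had counting intervals without 0 against both WT libraries. *Gbe1*, the branching enzyme, had 5.80 FPKM in WT_1, 6.84 FPKM in WT_2, 5.63 FPKM in TRKC+/- and 8.08 FPKM in AdNTF3-Tg, from 147 to 208 reads. Its log2 fold change in AdNTF3-Tg was 0.35 (counting interval 0.09 to 0.60), the highest of the 36 genes, and in TRKC+/- it was -0.16 (-0.46 to 0.12). *Ugp2*, which makes UDP-glucose, had 22.5, 27.1, 23.6 and 27.5 FPKM in WT_1, WT_2, TRKC+/- and AdNTF3-Tg, and AdNTF3-Tg exceeded WT_2 by only 0.02.

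*Gys1*, the glycogen synthase of tissues other than liver, had 14.4, 12.7, 14.5 and 15.2 FPKM in the same order, so it was highest in AdNTF3-Tg. Of the phosphorylases, *Pygb*, the brain form, had 88.3, 86.6, 92.9 and 86.1 FPKM and made up 78.5% to 81.0% of the sum with *Pygl*, the liver form, which had 24.2, 23.0, 21.8 and 20.3 FPKM. *Pygl* was lower in both mutants than in both WT libraries, by -0.11 in TRKC+/- and -0.21 in AdNTF3-Tg against the mean. The WT libraries differed from each other by more than AdNTF3-Tg did from their mean for *Ugp2* (-0.27), *Gys1* (0.18) and *Pygb* (0.03), and by less for *Gbe1* (-0.23) and *Pygl* (0.07).

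Below the cutoff, AdNTF3-Tg was below both WT libraries more often than above them. It was below for 19 of the 36 genes (34.7% of all genes tested) and above for 8 (34.5% of all genes). TRKC+/- was below both for 12 genes (30.5% of all genes) and above for 5 (32.6%). Of the 17 genes of at least 100 FPKM 12 (70.6%) were below both WT libraries in AdNTF3-Tg, and so were 60.5% of all 806 genes of that level.

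When both counting intervals also had to leave out 0, AdNTF3-Tg was below both WT libraries for 8 genes, *Gpi1*, *Aldoa*, *Tpi1*, *Gapdh*, *Pgk1*, *Pgam1*, *Eno1* and *Ldha*, where 6.21% of all genes and 38.8% of those of at least 100 FPKM were. It was above for *Pgm2l1* alone (5.60% of all genes). TRKC+/- was below for *Tpi1*, *Pgk1*, *Ldhb* and *Slc2a4* (2.46% of all genes) and above for 0 (2.71%). The counting interval of WT_1 against WT_2 left out 0, in either direction, for 17 of the 36 genes, where it did for 23.1% of all genes. That rule asks for 1 interval and not 2, so it is easier to pass. Intervals are also narrower for genes with more reads. Of the genes that passed, 9 between the WT libraries and 3 in TRKC+/- (*Tpi1*, *Pgk1* and *Ldhb*) had at least 100 FPKM. The share of all genes of that level was computed only for AdNTF3-Tg below both WT libraries, so these counts have no level-matched share.

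The differences in AdNTF3-Tg also ran with gene length. Over the 6798 genes of at least 10 FPKM, Spearman's rho between the log2 fold change and the length in the tables was 0.54 in AdNTF3-Tg, 0.16 in TRKC+/- and -0.19 for WT_1 against WT_2, across genes of the same libraries, which are not independent. The median log2 fold change in AdNTF3-Tg was -0.19 for genes shorter than 1000 bases and 0.10 for those of 5000 bases or more. The abundant glycolytic genes are short, with a median of 1831 bases over the 17 genes of at least 100 FPKM, and *Pgm2l1*, at 8641 bases, was the longest of the 36. After centring on genes of like length, an alternative chosen after seeing the data, the log2 fold change in AdNTF3-Tg was 0.00 for *Gapdh*, -0.03 for *Aldoa* and -0.12 for *Ldha*, and it stayed at 0.35 for *Gbe1*. It was 0.12 for *Pgm2l1*, and 18 of the 36 genes were then below both WT libraries, where 33.2% of all genes were. Above both were 9, against 8 before centring, when 34.5% of all genes were above both. The share of all genes above both was not computed after centring, so the count of 9 cannot be judged against it. The origin of the length trend was not tested.

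**Figure D4:**
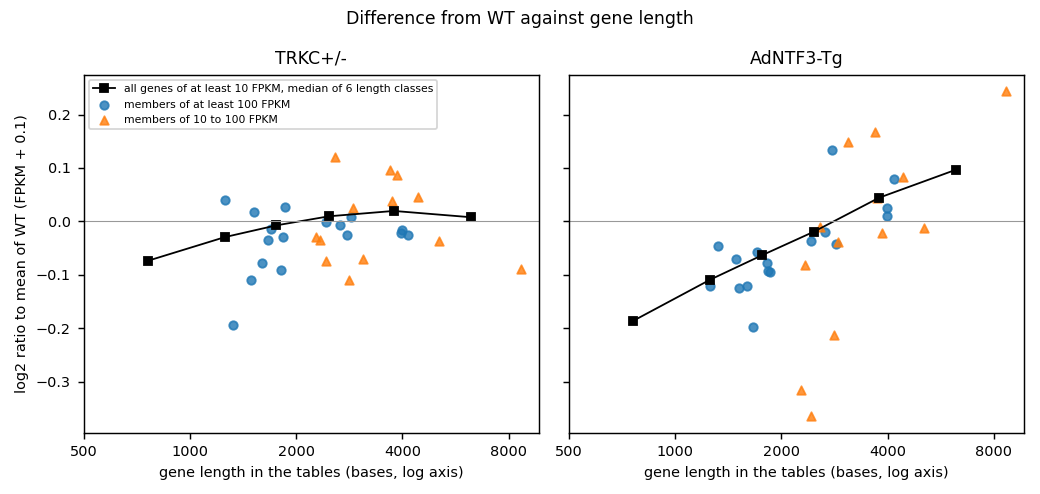
Log2 ratio of FPKM + 0.1 to the mean of WT against gene length (log axis) in TRKC+/- (left) and AdNTF3-Tg (right). Black squares are the medians of all genes of at least 10 FPKM in 6 length classes, circles are members of at least 100 FPKM and triangles members of 10 to 100 FPKM. In AdNTF3-Tg the medians climb from -0.19 to 0.10 and most of the abundant members lie near them. *Ldha* lies below and *Pdha1* above, at -0.12 and 0.15 after centring on genes of like length.

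Beyond the 36 genes, 79 further genes of glucose and glycogen metabolism were examined, 64 of which reached 1 FPKM. In TRKC+/- 4 of the 64 were at least 0.5 below both WT libraries (1.10% of all genes tested) and 0 above. These were *Pdk4*, a kinase that spares glucose during fat oxidation (3.25, 3.50, 1.69 and 3.18 FPKM in WT_1, WT_2, TRKC+/- and AdNTF3-Tg), *Pck1* of glyceroneogenesis (7.04, 4.83, 1.76 and 4.27 FPKM), *Fbp1* of gluconeogenesis (1.45, 1.36, 0.55 and 0.72 FPKM) and *Gpd1*, which makes glycerol 3-phosphate (46.7, 42.9, 27.6 and 38.5 FPKM). Their log2 fold changes were -0.96, -1.70, -1.21 and -0.70 against the mean of WT. *Fbp1* had only 7 to 18 reads per library, and its counting interval against WT_2 held 0. *Pck1* and *Gpd1* are highly expressed in fat, and 5 of the 11 adipocyte markers tested were lower by that rule in the same library. The part of adipocyte RNA in these levels was not tested.

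In AdNTF3-Tg 1 of the 64 was at least 0.5 below both WT libraries, *Fbp1* (1.90% of all genes), and 1 above, *Slc16a7* (MCT2), the lactate carrier of neurons (0.706% of all genes). The value of *Fbp1* was -0.88 against the mean of WT, with a counting interval that held 0 (-2.21 to 0.12). *Slc16a7* had 1.94 FPKM in WT_1, 1.82 FPKM in WT_2, 2.61 FPKM in TRKC+/- and 2.94 FPKM in AdNTF3-Tg, so it was higher in both mutants (0.45 and 0.62), and its counting interval in AdNTF3-Tg against WT_1 held 0 (-0.01 to 1.20). Of the muscle isoenzymes, 3 went with the muscle markers. *Eno3* had 7.34, 3.74, 4.40 and 3.82 FPKM in WT_1, WT_2, TRKC+/- and AdNTF3-Tg, *Pygm* 3.95, 0.76, 2.75 and 1.58 FPKM, and *Pgam2* 2.02, 0.94, 1.86 and 1.22 FPKM. *Pgam2* had only 7 to 15 reads per library, and its counting interval for WT_1 against WT_2 held 0 (-0.25 to 2.67). All were highest in WT_1 and lowest in WT_2, as was *Acta1*, the actin of skeletal muscle, with 21.1, 1.12, 10.2 and 7.79 FPKM. *Fbp2*, the muscle form of fructose bisphosphatase, did not follow, with 6.58, 5.90, 4.46 and 7.59 FPKM, nor did *Pfkm*. *Pfkm* had a mean of 95.7 FPKM, far above these isoenzymes, so a difference of a few FPKM would hardly show in it. Its counting interval for WT_1 against WT_2 was -0.06 to 0.10.

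**Figure D5:**
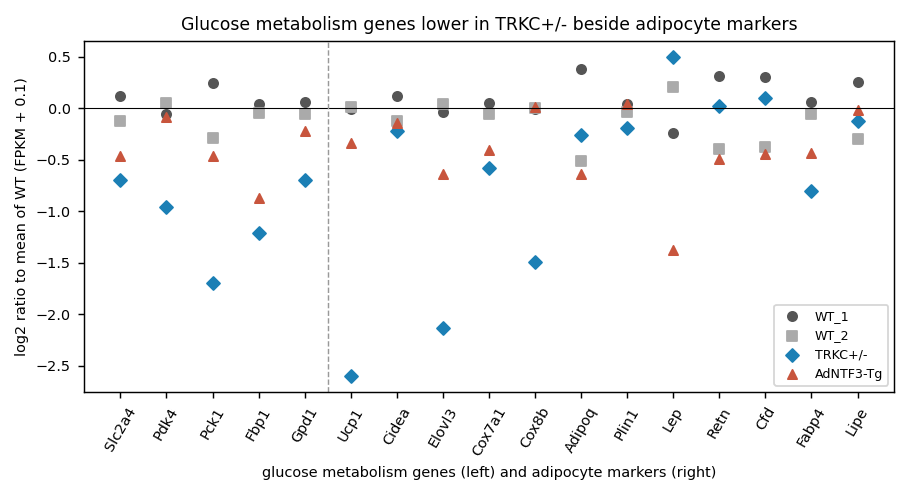
Log2 ratio of FPKM + 0.1 to the mean of WT for *Slc2a4*, *Pdk4*, *Pck1*, *Fbp1* and *Gpd1* (left of the dashed line) and the 12 adipocyte markers (right), 1 point per library. TRKC+/- lies from -0.70 to -1.70 for the 5 glucose genes, and among the markers it is low for *Ucp1*, *Elovl3*, *Cox7a1*, *Cox8b* and *Fabp4* while *Cfd*, *Retn*, *Adipoq* and *Lipe* lie between the WT libraries, *Plin1* and *Cidea* slightly below both and *Lep*, under 1 FPKM, above both.

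A short sequence that the choice of the list did not use was more frequent in its promoters than in all promoters, with no test made. RefSeq promoters were found for 34 of the 36 genes, all but *Slc2a3* and *Slc2a4*. ACGTG, searched on both strands in windows of 300 bases, was present in 26 of their 49 promoters (53.1%), against 19.6% of all 32851 promoters of the same length. Promoters with at least 10 CG dinucleotides held it in 23 of 41 cases for the list (56.1%) and in 28.0% of cases for all genes. The letters searched hold a CG themselves, and the promoters of the list had a median of 21 CG against 7 for all promoters, so this minimum does not make the sets alike. The *Ldha* promoter had most matches, 5, counted on both strands, so that each CACGTG, which reads the same on either strand, counts as 2. It is shown as the clearest case (GRCm38.p6, plus strand, chr7:46845554-46845853), with the matches in capitals.
Ldha: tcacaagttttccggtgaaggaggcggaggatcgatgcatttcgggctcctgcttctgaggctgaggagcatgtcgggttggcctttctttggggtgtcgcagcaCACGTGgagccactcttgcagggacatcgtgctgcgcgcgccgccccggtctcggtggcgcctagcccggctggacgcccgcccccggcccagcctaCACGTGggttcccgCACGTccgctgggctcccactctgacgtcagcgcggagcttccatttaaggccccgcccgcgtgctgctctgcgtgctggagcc

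A match of these letters is a description and not a site in use. Genes with at least 2 matches in 1 promoter lay on either side of the mean of WT in AdNTF3-Tg. Below it were *Slc16a3* (-0.37), *Pdk2* (-0.32), *Ldha* (-0.20), *Pgm1* (-0.08), *Pgk1* (-0.08), *Pfkm* (-0.04), *Pkm* (-0.04) and *Pfkfb3* (-0.01). Above it were *Pgm2l1* (0.24), *Hk1* (0.08), *Slc16a1* (0.08) and *Hk2* (0.04). Genes with 0 matches also lay on either side. Below were *Tpi1* (-0.12), *Eno1* (-0.09), *Ldhb* (-0.05), *Gpi1* (-0.04) and *Eno2* (-0.02). Above were *Gbe1* (0.35), *Gys1* (0.17), *Pdha1* (0.13), *Pdk1* (0.06), *Pfkl* (0.04) and *Pfkp* (0.03). A relation between matches and fold changes was not tested.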

How the data were processed

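RNA was measured in 4 pooled libraries, 1 from AdNTF3-Tg, 1 from TRKC+/- and 2 from WT mice. Per the study's methods, mRNA was enriched with oligo(dT), read single-end, filtered with SOAPnuke and mapped to mm9 with HISAT2. The submitters' processing notes name mm10 and RSEM instead, and the conflict was not resolved. The authors deposited expected counts per gene, which need not be whole, under Entrez identifiers, and an FPKM value beside each, which scales that count to gene length and library size. The strand setting of the counting is not given in the sources used here. Between 8665955 and 8894985 reads on genes per library set the precision. Symbols came from RefSeq and positions from the GENCODE annotation of NCBIM37.

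Fold changes are log2 of FPKM + 0.1, for genes listed in all 4 libraries and averaging 1 FPKM or more, and a gene was called at 0.5. They understate changes of low genes. Exact Clopper-Pearson 95% intervals of the ratio of rounded expected counts cover counting error only. There was no test between groups. The members and gene lists were chosen with earlier results of these data known, and named genes are all 36 members, other pathway genes beyond both WT libraries, *Pgam2*, *Eno3* and *Pygm*, *Ntrk3* and up to 3 of the most abundant markers of a list, not all of which are given. *Ucp1* and other markers beyond these, *Fbp2* and *Slc2a6* were named after their values were seen. Alternatives were pseudocounts of 1 and 0.01, other minimums, centring, rounded counts scaled by edgeR 4.0.16 (TMM, prior count 2) or by DESeq2 1.42.0 size factors (plus 2), leaving out a WT library, a cutoff of 1 and intervals without 0. Scripts were tested on simulated data.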

Additional observations from a re-analysis of the deposited data

How the results depend on the processing

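No paired analysis was possible because each mutant group holds 1 library. The count of 0 members past the fold in AdNTF3-Tg against the mean of WT became 2 without WT replicate 1 (*Pgm2* and *Slc16a3*) and 2 without WT replicate 2 (*Slc2a4* and *Pdk2*), where 7.16% and 7.83% of all genes passed, and was 0 under all other alternatives. In TRKC+/- the count of 1 (*Slc2a4*) ranged from 1 without WT replicate 1 to 2 without WT replicate 2, which added *Pgm2*, where 6.64% and 4.89% of all genes passed. Among genes averaging 10 FPKM or more, and with a cutoff of 1, each of the 4 counts of 1 was 0 (*Slc2a4* in TRKC+/- against the mean and against both WT libraries, *Pgm2* between the WT libraries and *Pgm2* in opposite directions). With a pseudocount of 1 *Slc2a4* was no longer 0.5 from both WT libraries, and that count was 0. The counts with TMM, size factors, centring, intervals without 0 or no minimum were the same. The median of the members in AdNTF3-Tg, -0.0382, was -0.0221 after centring on genes of like length, and -0.0349 without WT replicate 1 and -0.0556 without WT replicate 2. In TRKC+/- the median, -0.0232, moved the other way, to -0.0381, after centring on genes of like length. It ran from -0.05 to -0.01 without 1 WT library. Of 72 fold changes, 11 differed in sign under an alternative that kept both WT libraries, none larger than 0.07, and 27 did when a WT library was left out. Shares of isoenzymes by FPKM assume the deposited lengths. The 6 genes under 10 FPKM had at most 208 reads per library, which limits what could be seen there.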
